A study of Mus musculus with 12 samples.

Results

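A set of 10 genes of the lysosome was followed through the retinas of p16-3MR mice: the cathepsins Ctsb, Ctsc, Ctsd, Ctsh, Ctsl, Ctss and Ctsz, the protease gene Lgmn, and Lamp1 and Hexa, which encode lysosomal proteins that are not proteases. They were chosen by name, with earlier results of these data known. Each of the 10 had its own entry among the 24340 entries of the expression table and was above 0 in all 12 libraries. RNA was sequenced from both retinas of 6 mice of 12 to 16 weeks. In every mouse the intraocular pressure (IOP) of 1 eye was raised for 60 min, to 85 to 90 mm Hg, and the contralateral eye was the control. Mice 1, 2 and 5 received ganciclovir (GCV) at 25 mg/kg once a day and mice 3, 4 and 6 were sham-treated with PBS, which gave 4 groups of 3 retinas: control, IOP, control with GCV and IOP with GCV. Retinas were analysed on day 3, a time taken from the text of the study. All mice, controls included, carried the 3MR transgene, in which the regulatory region of p16 drives a fusion protein with a viral thymidine kinase that makes GCV toxic to the cells expressing it. No GCV-treated wild-type retina was analysed here, so that removal of these cells and other actions of GCV cannot be told apart.

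Cathepsins are made as inactive precursors, are carried to the lysosome and become active in its acid interior, where they break down proteins delivered by endocytosis, phagocytosis and autophagy. Most are cysteine proteases (Ctsb, Ctsc, Ctsh, Ctsl, Ctss and Ctsz), whereas Ctsd encodes an aspartic protease and Lgmn an endopeptidase that cuts after asparagine and processes several cathepsins. In neural tissue, neurons and photoreceptors depend on lysosomes for the turnover of their own proteins, and microglia and macrophages, the phagocytes of the retina, are rich in lysosomal proteases.

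The promoters of 3 of the genes are shown, because Ctss had the largest change upon IOP elevation, Ctsd the highest level and Lamp1 the smallest change over both treatments. The set of RefSeq promoter sequences used (GRCm38.p6) gave 9 promoter windows for 8 of the 10 genes. It held no entry for Ctsb and Ctsh, although both have a position in RefSeq. Each window ran from 250 bases before the start of the gene to 50 bases after it, and the 120 bases just before the start are printed 5′ to 3′ on the strand of the gene. Ctss lies at chr3:95526786-95556405 and its stretch at chr3:95526666-95526785 on the plus strand, with capitals marking GAAA, a pair of bases of any kind and GAAA again, the repeat at the core of interferon response elements. Ctsd lies at chr7:142375910-142387827 and its stretch at chr7:142387828-142387947 on the minus strand, and Lamp1 lies at chr8:13159161-13175338 with its stretch at chr8:13159041-13159160 on the plus strand, with capitals marking CACGTG in both, the E-box core of the element that is bound by the lysosomal regulator TFEB.
Ctss: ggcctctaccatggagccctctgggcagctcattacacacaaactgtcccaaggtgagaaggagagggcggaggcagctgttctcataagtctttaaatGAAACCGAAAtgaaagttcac
Ctsd: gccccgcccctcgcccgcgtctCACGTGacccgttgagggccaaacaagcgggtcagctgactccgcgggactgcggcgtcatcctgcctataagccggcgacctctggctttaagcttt
Lamp1: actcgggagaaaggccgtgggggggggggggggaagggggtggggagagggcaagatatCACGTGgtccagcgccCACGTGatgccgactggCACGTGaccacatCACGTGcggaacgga
The Ctss repeat lay 21 to 12 bases before the start, and such a repeat was found on either strand in 3.44% of 32851 promoter windows of the genome and in 2 of the 8 genes, Ctss and Lamp1. CACGTG was found in 7.15% of windows and in 4 of the 8 genes, Ctsd, Lamp1, Lgmn and Ctsl. Lamp1 held 4 copies, all within the stretch shown, and 4 or more were found in 8 windows of the genome (0.0244%). Ctsd held 2, of which the other lay outside the stretch shown, and 2 or more were found in 0.594% of windows. The longer form TCACGTGA, which contains CACGTG, stood in 0.974% of windows and, of the 8 genes, in Ctsd alone. GAGGAAGT, a site of the myeloid factor PU.1, stood in 3.20% of windows and in Ctss and Ctsc, TTCNNNGAA (the STAT site) in 8.30% and in Ctsc, and TGANTCA (the AP-1 site) in 7.81% and in none of the 8. These are matches of letters in the genome and not measurements of binding.

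The table holds FPKM, fragments per kilobase of transcript scaled to the size of the library, so that levels are per length and can be set beside each other between genes. Depth, estimated from the steps between low values, was 6860000 to 9030000 fragments in 11 libraries and 3980000 in the IOP-treated retina of mouse 6, which also had 14844 genes above 0 against 16044 to 16593 in the others. A value of 1 FPKM therefore stood for about 3.98 to 9.03 fragments per kilobase, and the lowest level of the 10 genes, 4.57 FPKM of Ctsc in the control retina of mouse 4, for about 41.3. The rod markers, Gnat1 and Sag among them, summed to 30935 to 57424 FPKM in the 12 libraries, which are labelled as retina. Lens markers, led by Cryaa, Crygs and Lgsn, were also present, at 3.84 to 20.0 FPKM in sham-treated control retinas and up to 4307 FPKM in the control retina of mouse 1.

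In control retinas the 10 genes covered a wide range of levels. Ctsd was the most abundant, at 264 to 342 FPKM in the 6 control retinas, and its mean in sham-treated controls ranked 139 among 18509 genes. Lamp1, Ctsb and Lgmn followed with sham-treated control means of 190 ± 12 (SD, n = 3), 176 ± 16 and 169 ± 6.9 FPKM, and neighbours among these 3 overlapped in their replicates. Ctsl, at 75.5 ± 10.3 FPKM, overlapped neither neighbour. Ctsz and Hexa overlapped each other at 37.6 ± 5.6 and 36.8 ± 4.1 FPKM, as did Ctss and Ctsh at 20.2 ± 6.1 and 19.5 ± 4.1 FPKM, and Ctsc was the lowest at 5.96 ± 1.28 FPKM. In IOP-treated retinas Ctsd was still first and Ctsc last by mean, but Ctss had moved from the eighth place to the fifth in both treatments. In both IOP-treated groups Ctss overlapped the gene above it and Ctsl below it, and Ctsd overlapped Ctsb. Among all genes, Ctss rose from rank 3868 to rank 306 in sham-treated mice and from rank 2816 to rank 209 in GCV-treated mice.

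**Figure D1:**
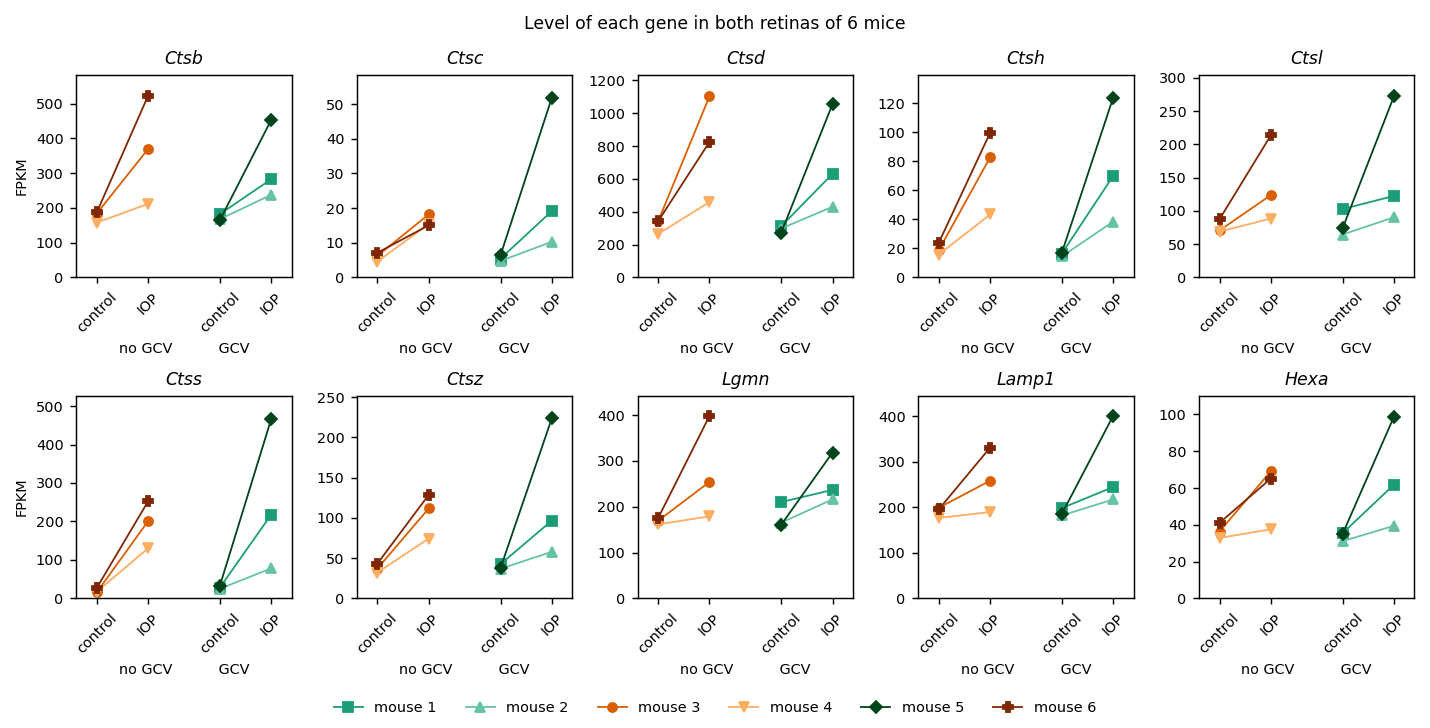
FPKM (vertical axes, starting at 0) of each of the 10 genes in the control and IOP-treated retina of the same mouse, joined by a line, without GCV (mice 3, 4 and 6) and with GCV (mice 1, 2 and 5). Every line climbs, and the ratio between the eyes is largest for Ctss, from 15.8 to 32.6 FPKM in control retinas to 78.1 to 465 FPKM in IOP-treated retinas.

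Upon IOP elevation the cathepsin transcripts were higher in the treated eye, and most of all Ctss. Each of the 10 genes was higher in the IOP-treated than in the control eye of all 6 mice, which held for 10.7% of all genes. Over both treatments 6 of the 10 rose at an adjusted p under 0.05 (limma, over 18509 genes), namely Ctss, Ctsh, Ctsc, Ctsz, Ctsd and Ctsb, and none fell, where 6.76% of all genes were called higher and 5.44% lower. The median of the 10 log2 fold changes was 1.06, against 0.01 over all genes. The same 6 genes were those whose 6 IOP-treated libraries all lay above the 6 control libraries, a pattern met by 5.47% of all genes. Ctss, Ctsh, Ctsc and Ctsz were called in each of 12 fits that left out 1 library, and the number called ran from 4 to 10, beside 3.56% to 10.9% of all genes called higher, with both highest when the IOP-treated library of mouse 4 was left out. In RNA from whole retina, more cells of a type and more RNA per cell cannot be told apart.

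Cathepsin S, a cysteine protease of phagocytes and antigen-presenting cells that stays active at neutral pH and trims the invariant chain of MHC class II, showed the largest change. Ctss stood at 15.8, 17.7 and 27.2 FPKM in the sham-treated control retinas of mice 3, 4 and 6 and at 201, 130 and 252 FPKM in their IOP-treated retinas. In GCV-treated mice 1, 2 and 5 it stood at 28.2, 25.1 and 32.6 FPKM in control and at 217, 78.1 and 465 FPKM in IOP-treated retinas. The lowest IOP-treated library, that of mouse 2, was still above every control, and the ratio between the eyes of a mouse ran from 3.11 in mouse 2 to 14.3 in mouse 5. On the log2(FPKM + 1) scale Ctss rose by 3.19 (SE 0.52, adjusted p = 0.0189) without GCV, by 2.77 (SE 0.52, adjusted p = 0.0278) with GCV and by 2.98 (SE 0.37, adjusted p = 0.00127) over both. The call without GCV was lost when 1 library was left out in 4 of 6 fits, those lacking the control library of mouse 3 (adjusted p = 0.103) or 4 (0.0910) or the IOP-treated library of mouse 3 (0.0620) or 6 (0.0555). With GCV it was lost on dropping the control library of mouse 1 (0.101), 2 (0.119) or 5 (0.0927) or the IOP-treated library of mouse 1 (0.0699), whereas over both treatments it held in all 12 such fits. The log2 fold change with GCV ran from 2.16 without the IOP-treated library of mouse 5 to 3.44 without that of mouse 2, and that without GCV from 2.97 to 3.45.

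Cathepsin H, an aminopeptidase, was second. Ctsh (chr9:90054267-90076095) stood at 18.7, 15.7 and 23.9 FPKM in sham-treated control retinas and at 82.7, 43.4 and 99.7 FPKM in the IOP-treated retinas of the same mice 3, 4 and 6. With GCV it stood at 16.4, 14.4 and 17.1 FPKM in controls and at 70.0, 38.5 and 124 FPKM upon IOP elevation in mice 1, 2 and 5. Mice 2 and 4 had the smallest increases, and no IOP-treated library overlapped a control. The log2 fold change was 1.84 (SE 0.39, adjusted p = 0.0502) without GCV, where it missed the threshold, 2.06 (SE 0.39, adjusted p = 0.0302) with GCV and 1.95 (SE 0.28, adjusted p = 0.00268) over both. The call with GCV was lost in 5 of 6 fits that left out 1 library, with adjusted p = 0.103, 0.127 and 0.101 on dropping the control library of mouse 1, 2 or 5 and 0.0699 and 0.0704 on dropping the IOP-treated library of mouse 1 or 5.

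Cathepsin C, the dipeptidyl peptidase that activates the granule proteases of neutrophils and cytotoxic lymphocytes, was the least abundant of the 10. Over both treatments it was the third in size of change. Ctsc (chr7:88278024-88315861) stood at 6.19, 4.57 and 7.11 FPKM in sham-treated control retinas and at 18.2, 15.4 and 15.0 FPKM in the IOP-treated ones. With GCV the controls had 5.40, 4.73 and 6.38 FPKM and the IOP-treated retinas 19.1, 10.3 and 51.8 FPKM. The value of 51.8 FPKM, in mouse 5, stood apart from the other IOP-treated retinas, none of which passed 19.1 FPKM. Over both treatments Ctsc rose by 1.57 on the log2 scale (SE 0.31, adjusted p = 0.0128), and it was still called at 1.27 with the IOP-treated library of mouse 5 left out. Within treatments it was not called, at 1.32 (adjusted p = 0.178) without and 1.82 (adjusted p = 0.0659) with GCV. With 1 library left out the value with GCV ran from 1.22 (without the IOP-treated library of mouse 5) to 2.33 (without that of mouse 2), and the latter was called (adjusted p = 0.00660). It was also called with GCV at a pseudocount of 0.1 (adjusted p = 0.0421) or with genes of low level filtered out (0.0405), and without GCV when only the groups compared were fitted (0.0326).

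Cathepsin Z, a carboxypeptidase also known as cathepsin X, was likewise higher in the treated eye of each mouse. Ctsz (chr2:174427494-174439039) stood at 37.2, 32.2 and 43.3 FPKM in sham-treated controls and at 112, 74.4 and 129 FPKM in the IOP-treated retinas. With GCV it stood at 42.6, 36.9 and 37.9 FPKM in controls and at 96.7, 57.9 and 224 FPKM in IOP-treated retinas. The groups did not overlap, and mice 2 and 5 marked the extremes with ratios between the eyes of 1.57 and 5.91. Ctsz rose by 1.44 on the log2 scale over both treatments (SE 0.28, adjusted p = 0.0125), with 1.43 (adjusted p = 0.115) without and 1.45 (adjusted p = 0.0989) with GCV. The value with GCV ran from 0.92 without the IOP-treated library of mouse 5 to 1.89 without that of mouse 2, where it was called (adjusted p = 0.0148). Without GCV Ctsz was called when only the groups compared were fitted (adjusted p = 0.0430) or the IOP-treated library of mouse 4 was left out (0.0348).

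The most abundant cathepsins of the set, Ctsd and Ctsb, had smaller folds on higher levels. Cathepsin D is the main aspartic protease of the lysosome, and its loss causes a neuronal ceroid lipofuscinosis. Ctsd went from 341, 264 and 342 FPKM in sham-treated controls to 1102, 458 and 824 FPKM upon IOP elevation. In GCV-treated mice it went from 312, 297 and 272 FPKM to 631, 430 and 1055 FPKM. It rose by 1.21 on the log2 scale over both treatments (SE 0.25, adjusted p = 0.0174), a call lost when the control library of mouse 4 was left out (adjusted p = 0.0530) and kept in the 11 other fits that left out 1 library. Cathepsin B is a cysteine protease that acts both as an endopeptidase and as a carboxypeptidase. Ctsb (chr14:63122462-63145923) stood at 184, 158 and 187 FPKM in sham-treated controls and at 369, 211 and 522 FPKM in the IOP-treated retinas. With GCV the controls had 182, 167 and 164 FPKM and the IOP-treated retinas 282, 238 and 453 FPKM. The lowest IOP-treated value, in mouse 4, was above the highest control by less than the range of the controls. Ctsb rose by 0.92 on the log2 scale (SE 0.22, adjusted p = 0.0283) over both treatments, a call lost in 8 of 12 fits that left out 1 library, with adjusted p from 0.0539 to 0.0748, among them those without each of the GCV-treated controls.

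Ctsl, Lgmn, Hexa and Lamp1 were higher in each IOP-treated eye but missed the threshold, and their groups overlapped over both treatments. Cathepsin L is an endopeptidase of lysosomal and autophagic protein turnover. Ctsl (chr13:64361890-64370772) stood at 64.3 to 103 FPKM in the 6 control retinas and at 88.4 to 272 FPKM in the 6 IOP-treated retinas, with medians of 72.1 and 123 FPKM. Its highest control, mouse 1, lay above the IOP-treated retinas of mice 2 and 4, and the log2 fold change over both treatments was 0.84 (SE 0.29, adjusted p = 0.0773). Lgmn (chr12:102394082-102439728) stood at 161 to 210 FPKM (median 167) in controls and at 179 to 398 FPKM (median 246) in IOP-treated retinas, with a log2 fold change of 0.57 (SE 0.18, adjusted p = 0.0640). Again mouse 1 had the highest control, above the IOP-treated retina of mouse 4. Hexa (chr9:59539540-59565109), the alpha subunit of the hexosaminidase that degrades gangliosides and is lost in Tay-Sachs disease, stood at 31.1 to 41.1 FPKM (median 35.3) in controls and 37.6 to 98.7 FPKM (median 63.5) in IOP-treated retinas. Its log2 fold change was 0.72 (SE 0.21, adjusted p = 0.0531). Lamp1, a heavily glycosylated protein of the lysosomal membrane, changed least over both treatments, with a log2 fold change of 0.48 (SE 0.17, adjusted p = 0.0865). It stood at 177 to 199 FPKM (median 191) in controls and at 189 to 401 FPKM (median 251) in IOP-treated retinas. When the IOP-treated library of mouse 4 was left out these 4 genes were called as well, which made 10 of 10 beside 10.9% of all genes called higher in that fit, with adjusted p = 0.0320 for Ctsl, 0.00863 for Lgmn, 0.0126 for Hexa and 0.0242 for Lamp1. Ctsl (adjusted p = 0.0463) and Hexa (0.0159) were also called when that of mouse 2 was left out. Hexa was called as well at a pseudocount of 0.1 (adjusted p = 0.0483) and with genes of low level filtered out (0.0366), and Lgmn with that filter (0.0451) and under quantile normalization (0.0385).

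Within a treatment, fewer genes passed. Without GCV only Ctss was called of the 10, beside 1.42% of all genes called higher, although the 3 IOP-treated libraries of 8 genes (the exceptions were Lamp1 and Hexa) lay above the 3 controls, as did those of 11.7% of all genes. With GCV, Ctss and Ctsh were called, beside 1.65% of all genes, and 9 genes (the exception was Ctsl) did not overlap between the groups, beside 14.5% of all genes. The median log2 fold change of the 10 genes was 1.11 without and 1.02 with GCV, against 0.00 in both over all genes. The number called without GCV went to 6 when the IOP-treated library of mouse 4 was dropped (beside 5.25% of all genes called higher), with Ctsh, Ctsz, Ctsd, Ctsb and Lgmn added, and to 0 when the control library of mouse 3 or 4 or the IOP-treated library of mouse 3 or 6 was dropped. With GCV it went to 5 on dropping the IOP-treated library of mouse 2 (beside 3.68% of all genes), with Ctsc, Ctsz and Hexa added, to 1 on dropping that of mouse 5, and to 0 on dropping that of mouse 1 or any of the 3 controls. The log2 fold change with GCV of each of the 10 genes was lowest without the IOP-treated library of mouse 5, and that of 9 genes (the exception was Lgmn) was highest without that of mouse 2.

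The size of the change varied between mice within each treatment. The median log2 difference between the eyes over the 10 genes was 1.21, 0.61 and 1.27 in sham-treated mice 3, 4 and 6 and 0.90, 0.52 and 1.91 in GCV-treated mice 1, 2 and 5. Mouse 5 had the largest change in 8 genes and mouse 6 in the other 2, Ctsb and Lgmn. Mouse 2 had the smallest change in 5 genes, mouse 4 in 4 and mouse 1 in 1, Ctsl. The summed FPKM of the 7 cathepsins was 561 to 718 in the 6 controls, 1021 in the IOP-treated retina of mouse 4 and 942 in that of mouse 2, against 2009, 2056, 1438 and 2645 in those of mice 3, 6, 1 and 5. The library of mouse 6 has the lowest depth, and without it the number of genes called over both treatments was 6, as with it.

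**Figure D2:**
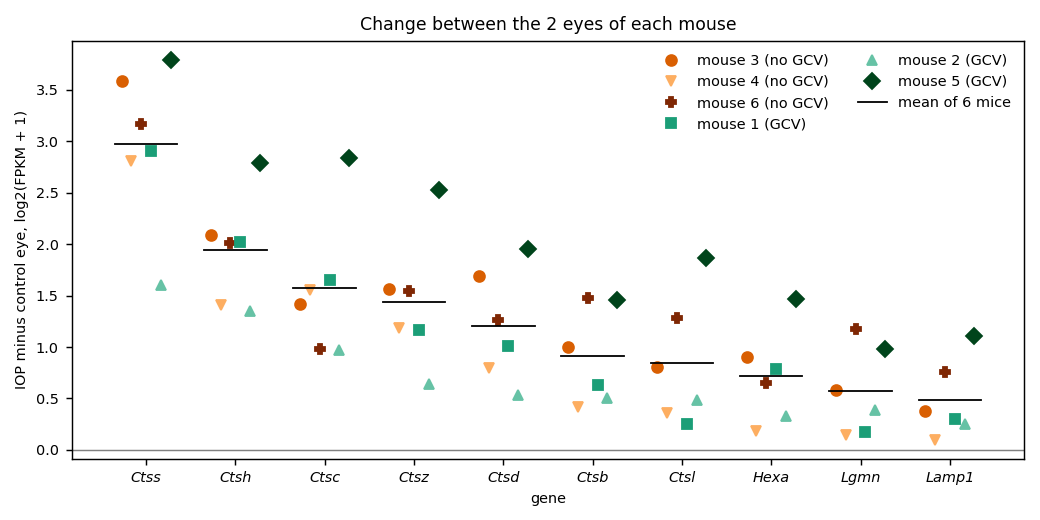
Difference between the IOP-treated and the control eye of each mouse in log2(FPKM + 1) (vertical axis) for each gene, ordered by the mean of the 6 mice (line). All 60 points lie above 0, from 0.10 (Lamp1, mouse 4) to 3.79 (Ctss, mouse 5), and mouse 5 is the highest point in 8 genes.

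GCV was compared to ask whether the removal of p16-expressing cells altered these changes, and no difference was called in any of the 10 genes. The response to IOP with GCV minus that without differed from 0 at no gene of the 18509 tested (0% called, limma), with 1.93% of genes and none of the 10 at an unadjusted p under 0.05. For Ctss the difference was -0.42 on the log2 scale, with a 95% confidence interval from -2.06 to 1.22, which spans both a smaller and a larger response. For Ctsh it was 0.22 (-1.02 to 1.46), for Ctsc 0.50 (-0.86 to 1.86) and for Ctsd -0.08 (-1.21 to 1.04). The narrowest interval was that of Lamp1, from -0.61 to 0.90 around 0.14.

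In IOP-treated retinas alone, the GCV-treated libraries of each gene overlapped the sham-treated ones. Ctss averaged 254 ± 196 (SD, n = 3) FPKM with GCV and 194 ± 61 FPKM without, and Ctsd 705 ± 319 and 795 ± 323 FPKM. None of the 10 genes was called (0% of all genes called, 4.18% at an unadjusted p under 0.05 against none of the 10), with log2 differences between -0.18 (Ctsd) and 0.42 (Ctsc). In control retinas the log2 difference lay between -0.25 (Ctsh, -0.39 to -0.10 with 1 library left out) and 0.51 (Ctss, 0.36 to 0.73), and none was called either (0% of all genes, 1.59% at an unadjusted p under 0.05 against none of the 10). Ctss averaged 28.6 ± 3.8 FPKM in GCV-treated and 20.2 ± 6.1 FPKM in sham-treated controls, with the control of mouse 6 inside the GCV-treated range.

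**Figure D3:**
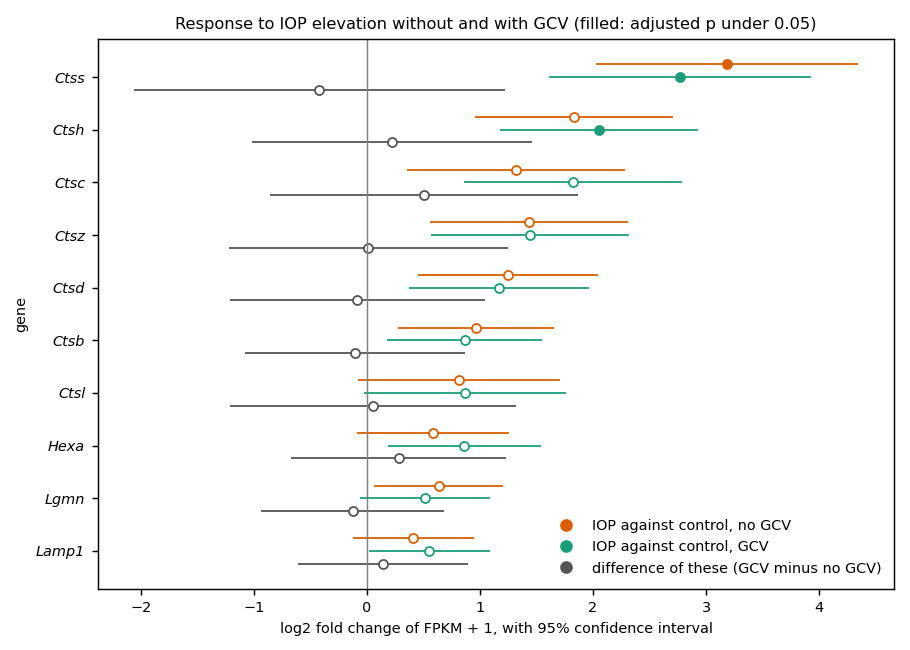
Log2 fold change of FPKM + 1 between IOP-treated and control retinas (horizontal axis) with its 95% confidence interval, for each gene in sham-treated mice, in GCV-treated mice, and for the difference between these responses. Filled points have an adjusted p under 0.05 (Ctss in both, Ctsh with GCV), and each of the 10 intervals of the difference covers 0.

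Because the rises were unequal, the make-up of the summed mRNA of the 7 cathepsins of the set shifted towards Ctss. Cathepsins outside the set, such as Ctsf and Ctsa at 97.3 and 43.3 FPKM in sham-treated controls, were not in this sum. As a share of the summed FPKM of the 7 cathepsins, Ctss went from 3.10% ± 0.73 (SD, n = 3) in control to 11.7% ± 1.5 in IOP-treated retinas without GCV and from 4.54% ± 0.75 to 13.7% ± 4.8 with GCV. Its share was higher in the IOP-treated eye of 6 of 6 mice. Ctsh, from 2.97% ± 0.31 to 4.4% ± 0.39 without GCV, and Ctsz, from 5.77% ± 0.26 to 6.37% ± 0.86, also had a higher share in the IOP-treated eye of 6 mice. The shares of Ctsb and Ctsl were lower in the IOP-treated eye of all 6 mice, that of Ctsb going from 27.2% ± 1.0 to 21.5% ± 3.6 without GCV and from 27.0% ± 0.5 to 20.7% ± 4.1 with it, even though their levels were higher. Ctsd held the largest share throughout, at 48.5% ± 1.9 in control and 46.6% ± 7.5 in IOP-treated retinas without GCV. Its share was higher in the IOP-treated eye of only 1 of 6 mice.

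**Figure D4:**
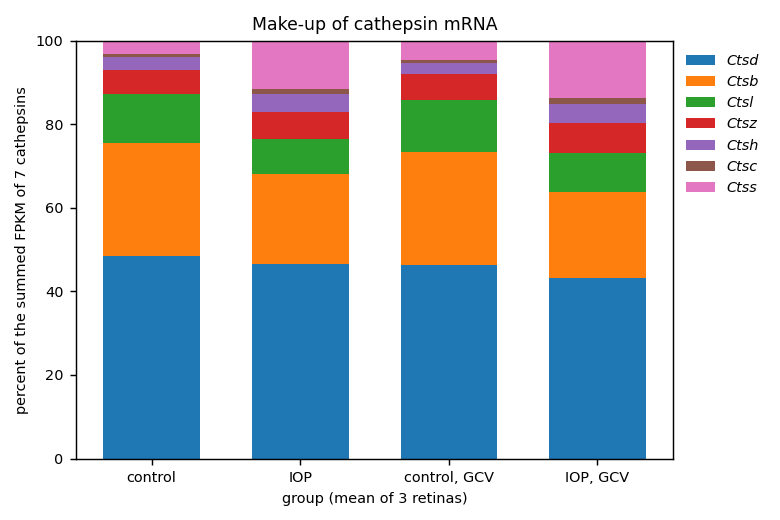
Share of each of 7 cathepsins in their summed FPKM (vertical axis, percent), as the mean of the 3 retinas of each group. The Ctss segment grows from 3.10% to 11.7% without GCV and from 4.54% to 13.7% with GCV, while the Ctsb and Ctsl segments shrink.

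Other genes of the lysosome moved less uniformly over both treatments. Over all genes 6.76% were called higher and 5.44% lower. Among 7 further cathepsins, Ctsg was at 0 in every library and 1 of the 6 tested rose, Ctsa, a carboxypeptidase that also protects lysosomal glycosidases, with means of 43.3 and 43.0 FPKM in controls without and with GCV and 77.4 and 72.1 FPKM in IOP-treated retinas (log2 fold change 0.75, SE 0.15, adjusted p = 0.0159). Ctsf, at 97.3 FPKM in sham-treated controls the most abundant of them, was lower in the IOP-treated eye of 5 of 6 mice but missed the threshold (-0.41 on the log2 scale, adjusted p = 0.121), and Ctso had 0.12 (adjusted p = 0.542). The count was 3 when the IOP-treated library of mouse 4 was left out, beside 10.9% of all genes called higher in that fit. Of 11 genes of protease inhibitors, cystatins and serpins, 3 rose and none fell. Serpina3n, a serine protease inhibitor of reactive glia, rose by 3.37 (SE 0.48, adjusted p = 0.00260), and Cst7, a cystatin of activated microglia, by 0.90 from a mean of 0.190 FPKM in sham-treated controls (adjusted p = 0.00917). Serpinb6a had 0.93 (adjusted p = 0.0478, and 0.0565 with the mouse as a block). Cst3, the main cystatin of the retina at 2069 ± 143 FPKM in sham-treated controls, was not called (0.13 on the log2 scale, adjusted p = 0.769), and neither was Cstb (0.71, adjusted p = 0.142).

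Of 32 other lysosomal hydrolases, 10 rose and 1 fell, beside 6.76% of all genes called higher and 5.44% lower. Their median log2 fold change was 0.28 against 0.01 over all genes. With the mouse as a block 8 rose and none fell, beside 4.83% of all genes called higher. Acp5, the acid phosphatase of osteoclasts and macrophages, rose by 3.07 (adjusted p = 0.00864) from means of 0.133 and 0.192 FPKM in controls, which rest on few fragments, and Galns and Naglu, which degrade glycosaminoglycans, by 1.05 (adjusted p = 0.0102) and 0.71 (adjusted p = 0.0106). The hydrolase that fell was Ids, named here after its value was seen (-0.68, adjusted p = 0.0381, and 0.0515 with the mouse as a block). Smpd1 and Tpp1, among the most abundant hydrolases of the list, were not called, with log2 fold changes of -0.38 and 0.25. The 11 calls became 6 or 7 when any control library or the IOP-treated library of mouse 5 was left out. In those fits 3.56% to 5.21% of all genes were called higher. The calls became 15 when the IOP-treated library of mouse 4 was left out, beside 10.9% of all genes called higher. Among 19 membrane and cofactor proteins 8 rose and none fell (median 0.45), and with the mouse as a block 7 rose and none fell. They were led by the macrophage proteins Cd68, at 4.14 (SE 0.57, adjusted p = 0.00231), and Laptm5, at 2.57 (adjusted p = 0.00195). Grn, the precursor of progranulin, rose by 1.79 (adjusted p = 0.00337), the cholesterol carrier Npc2 by 1.05 (adjusted p = 0.00883) and Lamp2, the partner of Lamp1, by 1.02 (adjusted p = 0.0260). Psap and Laptm4a, the most abundant of this list, missed the threshold, with 0.48 (adjusted p = 0.144) and 0.41 (adjusted p = 0.0995). The 8 calls became 4 or 5 on leaving out the control library of mouse 1, 2, 3, 4 or 5 or the IOP-treated library of mouse 3 or 5. In those fits 3.56% to 5.21% of all genes were called higher. Over the other fits the calls ran up to 11, beside 4.22% to 10.9% of all genes called higher.

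The proton pump that acidifies the lysosome showed another pattern. Of 18 subunit genes 2 rose and 5 fell over both treatments, beside 6.76% of all genes called higher and 5.44% lower. Their median log2 fold change was -0.13 (-0.21 under quantile normalization), and with the mouse as a block 2 rose and 1 fell. Summed over the list the pump was lower in the IOP-treated eye of all 6 mice, from 1739 to 1972 FPKM in controls to 1489 to 1785 FPKM in IOP-treated retinas. Atp6v1b2, the B subunit used in brain, fell by 0.53 (SE 0.09, adjusted p = 0.00755), Atp6v1a had -0.39 (adjusted p = 0.0153, and 0.0536 with the mouse as a block), and Atp6v1e1 had -0.23 (adjusted p = 0.0476, blocked 0.103). The other lower genes, named after their values were seen, were Atp6ap1 (-0.24, blocked adjusted p = 0.0780) and Atp6v1c1 (-0.28, blocked adjusted p = 0.0713). The 7 calls became 2 on leaving out any control library, beside 3.56% to 4.29% of all genes called higher. They became 3 or 4 on leaving out the IOP-treated library of mouse 1, 3 or 5 (4.97% to 6.33% of all genes called higher). On leaving out that of mouse 4 they became 10, beside 10.9% of all genes called higher. Atp6v0e rose by 0.87 (adjusted p = 0.0262) and Tcirg1, the subunit of osteoclasts and macrophages, by 1.35 (adjusted p = 0.0280). None of the 16 genes of lysosome biogenesis and sorting was called by limma, though 2 had an unadjusted p under 0.05. A call of 1 gene came at a pseudocount of 0.1 or on leaving out the IOP-treated library of mouse 4 or 6. In those fits 7.43%, 10.9% and 6.77% of all genes were called higher. The most abundant of them, Rab7, Vps35 and Gnptg, had log2 fold changes of -0.10, -0.02 and 0.09.

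**Figure D5:**
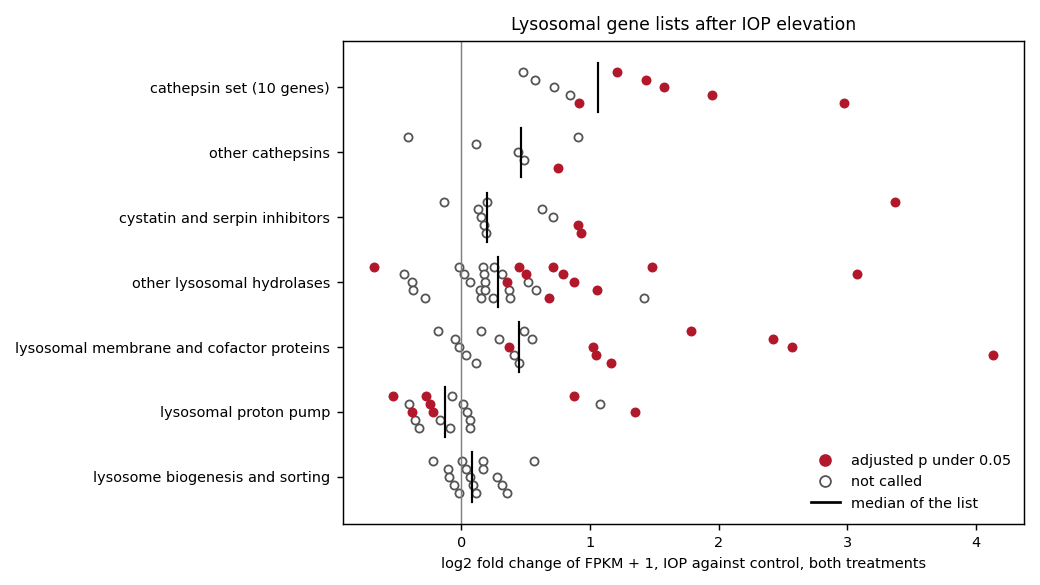
Log2 fold change of FPKM + 1 between IOP-treated and control retinas over both treatments (horizontal axis) for the 10 genes and for 6 lists of other lysosomal genes, where each point is a gene, filled at an adjusted p under 0.05, and the bar is the median of the list. The medians are 1.06 for the 10 genes and 0.45 for membrane and cofactor proteins, and -0.13 for the proton pump.

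Markers of other cells changed in the same retinas. Of 15 microglia and macrophage markers, 12 rose and 1 fell over both treatments, beside 6.76% of all genes called higher and 5.44% lower. With the mouse as a block 11 rose and 1 fell. None of the 15 markers was at 0 throughout a group. Their summed level was 62.5 to 123 FPKM in sham-treated controls and 390 to 774 FPKM in the IOP-treated retinas, and 81.6 to 94.3 and 338 to 1222 FPKM with GCV, with C1qb, Fcer1g and Tyrobp as the most abundant. Of 10 markers of infiltrating leukocytes 7 rose (6 with the mouse as a block), with Lyz2, S100a8 and S100a9 as the most abundant. The list summed to 9.48 to 47.2 FPKM in sham-treated controls and 323 to 738 FPKM in IOP-treated retinas, and to 11.6 to 36.4 and 176 to 2502 FPKM with GCV. Ly6c2 and Cd3e, named after their values were seen, were at 0 in every control with GCV. Mouse 5, with the largest change in 8 of the 10 genes, had the highest sum of both lists in its IOP-treated retina, and mouse 2 the lowest. Of 8 markers of retinal ganglion cells 6 fell, of which 1, Thy1, was called with the mouse as a block (adjusted p = 0.0488). The summed level of the 8 was lower in the IOP-treated eye of every mouse, by least in mouse 4, from 950 to 920 FPKM. In mouse 4 the median log2 change of the 8 markers was 0.00651, against -0.57 to -1.96 in the other mice. Of 7 lens markers 5 rose, with sums of 45.5 to 2387 FPKM in IOP-treated retinas without and 1676 to 3227 FPKM with GCV. The part of any of these cells in the changes of the cathepsins was not tested.

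The genes whose differences between the eyes came closest to those of the 3 most changed cathepsins were looked up among 12898 genes, by the root mean square difference of the log2 changes over the 6 mice. Nearest to Ctss were Tyrobp (0.36), the adaptor of microglial receptors, the complement receptor gene C3ar1 (0.38) and B2m (0.41), the light chain of MHC class I. Nearest to Ctsh were the myeloid transcription factor gene Irf8 (0.20), Grn (0.23) and the interferon-induced Oas1a (0.29). Nearest to Ctsc were the nucleotide receptor gene P2ry6 (0.15), Parp14 (0.21) and Chil3 (0.21), a chitinase-like gene of macrophages. Within the set itself Lgmn and Lamp1 were most alike, at 0.21, and Ctss and Lamp1 least, at 2.56.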

How the data were processed

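Stranded paired-end RNA libraries were sequenced from the retinas of 6 p16-3MR mice. The authors deposited 1 table with no stated unit, and its values were taken as FPKM from the steps between them. Their methods describe HOMER counts over the exons of RefSeq genes, while the submitters' processing notes list TopHat2, Bowtie2, Cufflinks, Cuffdiff and mm10. Which of these made the values is not given in the sources used here. All 12 columns were used, and no 2 libraries held identical values.

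On the log2(FPKM + 1) scale, limma 3.58.1 (variance trend, R 4.3.3) was fitted with 4 group means over the 12 libraries and Benjamini-Hochberg adjustment at 0.05 over the 18509 genes above 0 in at least 1 library. All p-values are two-sided, and fold changes on this scale understate those of low genes. A test on counts had been foreseen had the table held counts. The comparisons were IOP against control without GCV, with GCV and averaged over both treatments, the difference between these responses, and GCV-treated against sham-treated mice within IOP-treated or within control retinas. The labels give the mouse of every retina. The correlation between the deviations of the eyes of a mouse from their group means, over 12910 genes, was -0.117, 0.132, 0.207, 0.388, 0.166 and 0.0998 in mice 1 to 6. The numbers pair the retinas because both eyes come from the same animal, with the mouse as a block as an alternative. Control retinas are shared between comparisons.

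The 10 genes and all lists were chosen with earlier results of these data known. Named genes are the 10, the 3 most abundant and up to 4 called genes (over both treatments) of each lysosomal list, the 3 most abundant of each marker list, and the 3 genes nearest to each of the 3 most changed members. Some genes that this rule names are not reported here. Csta and Hbb-b2 had no entry, and Limp2, another name of Scarb2, was counted once, as Scarb2. Lists of Mueller glia (Apoe, Glul and Dkk3 the most abundant; 1 of 7 higher and 2 lower, and 0 higher and 1 lower with the mouse as a block), retinal pigment epithelium (Ttr, Rdh5 and Pmel; 0 of 7 called), blood (Hbb-b1, Hba-a1 and Hbb-bt; 0 of 6 called) and endothelium (Kdr, Cldn5 and Pecam1; 0 of 5 called) were tested in the same way, and of the rod markers 0 of 7 were called over both treatments.

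Depth was estimated from the low values of 2243 genes that have 1 transcript, 1500 bases or longer, after 170 bases were taken off the length, and of these values 84.5% to 90.4% per library fell within 0.2 of a whole number of fragments. No interval for single values was computed, since the table gives no counts. Motifs were searched on both strands of RefSeq promoter windows, and the motifs and printed promoters were chosen after values and sequences had been seen. Gene positions are those of GRCm38.p6 in RefSeq. The alternatives tried were a filter (1 FPKM or more in 3 libraries), a pseudocount of 0.1, only the groups compared, median-ratio scaling, quantile normalization, no variance trend, the mouse as a block, and each library left out in turn. The calling and the depth estimate were tested on simulated data. Tables were handled with Python 3.11.15, pandas 2.3.3 and numpy 2.4.6, and figures drawn with matplotlib 3.10.9.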

Additional observations from a re-analysis of the deposited data

Results flagged for a closer look

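Each of the 10 genes was examined for a library far from the other 5 in the 6 control retinas, in the 6 IOP-treated retinas and in the 6 differences between the eyes, by the gap to the nearest value as a share of the whole range, read against Dixon's critical value for 6 samples. Chance marks about 1 in 20 such groups, and 3 of 30 were marked. The difference between the eyes in Ctsc was far higher in mouse 5 than in the other mice (2.84 on the log2 scale against at most 1.65), with a gap of 0.636 of the range. The level of Ctsc in the IOP-treated retina of mouse 5, 51.8 FPKM against at most 19.1 FPKM in the others, had a gap of 0.787 of the range. The level of Lgmn in the control retina of mouse 1, 210 FPKM against at most 175 FPKM in the other controls, had a gap of 0.705 of the range.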

How the results depend on the processing

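In the comparisons of IOP-treated with control retinas no fold change of the 10 genes reversed under any alternative run. The number of the 10 called without GCV went from 1 to 2 with a pseudocount of 0.1, the filter or quantile normalization, where Ctsh was added, and to 3 with only the groups compared. With GCV it went from 2 to 3 with a pseudocount of 0.1 or the filter, where Ctsc was added, and to 0 with only the groups compared, with an adjusted p of 0.0826 for Ctss and 0.0747 for Ctsh. The filter tests fewer genes and only the groups compared uses fewer libraries, and otherwise the cause was not tested. Leaving out 1 library gave 0 to 6 called without GCV (beside 0.125% to 5.25% of all genes called higher), 0 to 5 with GCV (0.401% to 3.68%) and 4 to 10 over both treatments (3.56% to 10.9%; main 6). Pseudocount, filter and quantile normalization gave 7, 8 and 7 over both, beside 7.43%, 9.73% and 6.70% of genes called higher. For the changes within a treatment that share was 1.39% to 2.33% without GCV and 2.72% and 3.12% with GCV where the count went up, and 0.479% where it went to 0. With the mouse as a block the counts were 1, 2, 6 and 0 (difference between responses), and the paired fit changed no call of the 10, but over all genes the calls went from 306 to 75 without GCV, from 334 to 144 with GCV and from 2258 to 1351 over both.

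Reversals were found only in differences with GCV that were not called. The difference between responses became -0.00146 for Ctsz under median-ratio scaling and 0.0617 for Ctsb under quantile normalization, and under the latter GCV against no GCV in IOP-treated retinas became 0.0187 for Ctsh and 0.00269 for Lgmn. With 1 library left out the difference between responses ran from -0.45 to 0.20 (Ctsb), -0.10 to 1.01 (Ctsc), -0.44 to 0.22 (Ctsd), -0.19 to 0.64 (Ctsh), -0.40 to 0.39 (Ctsl), -1.03 to 0.25 (Ctss), -0.51 to 0.46 (Ctsz), -0.40 to 0.17 (Lgmn), -0.12 to 0.34 (Lamp1) and -0.0483 to 0.60 (Hexa). GCV in IOP-treated retinas ran from -0.49 to 0.16 (Ctsb), -0.19 to 0.93 (Ctsc), -0.53 to 0.13 (Ctsd), -0.45 to 0.39 (Ctsh), -0.33 to 0.46 (Ctsl), -0.52 to 0.76 (Ctss), -0.45 to 0.52 (Ctsz), -0.33 to 0.25 (Lgmn), -0.14 to 0.32 (Lamp1) and -0.16 to 0.49 (Hexa). GCV in control retinas ran from -0.12 to 0.00676 (Ctsb), -0.24 to 0.0314 (Ctsc), -0.22 to -0.0342 (Ctsd), -0.12 to 0.21 (Ctsl), -0.0402 to 0.17 (Ctsz), -0.0487 to 0.14 (Lgmn), -0.0649 to 0.0202 (Lamp1) and -0.19 to -0.0313 (Hexa), and kept its sign for Ctsd, Ctsh, Ctss and Hexa. The IOP-treated retina of mouse 6 had the lowest depth, so that low levels rest on fewer fragments there. Ctsc stood for about 59.8 fragments per kilobase in that library. Whether the depth altered the values of low genes such as Ctsc, Cst7 and Acp5 was not tested.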
